A study of Homo sapiens with 16 samples.

Results

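FOSL2 fell about 3-fold with the SUMO inhibitor TAK-981 in both myeloma lines, whereas FOS, FOSB and ATF3 fell with dexamethasone (Dex) in the Dex-sensitive line MM1S. The call on FOSB was lost when 1 vehicle library was left out. The Dex effect on FOS and ATF3 differed from that in the Dex-resistant line MM1R. All of these genes are members of a set of 10 AP-1 and immediate early genes, taken from the count table by their symbols: FOS, FOSB, FOSL2, JUN, JUNB, JUND, ATF3, EGR1, IER2 and IER3. The table held 23354 genes, and all 10 members were among the 14215 that passed the filter on low counts. MM1S and MM1R are human multiple myeloma cell lines, which the labels call glucocorticoid sensitive and resistant. The groups of each line were vehicle (Veh), TAK-981 alone at 0.1 μM (TAK), the synthetic glucocorticoid Dex alone at 1 μM, and the drugs together at these doses (combo), with 48 h of treatment. Each of the 8 groups had 2 libraries of rRNA-depleted total RNA, numbered 1 and 2. TAK-981 blocks the activation of SUMO, a small protein that is attached to other proteins, many of them transcription factors. The labels and methods do not say whether the libraries of a group came from separate cultures, so the p-values measure only the spread between these samples, which may be technical.

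AP-1 is a family of dimeric transcription factors built from FOS, JUN and ATF subunits through a leucine zipper, and it binds the TRE element and the related CRE element. JUN proteins can pair with each other, while FOS proteins need a JUN partner to bind DNA. Immediate early genes are transcribed within minutes of growth factor, cytokine or stress signals without new protein synthesis, and their transcripts are short-lived. The ligand-bound glucocorticoid receptor is a long-known antagonist of AP-1, and FOS and JUN proteins are themselves SUMO substrates.

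The positions of the members are those of hg19 that the count table gives, with FOSB, JUNB, JUND and IER2 all on chromosome 19. FOS is at chr14:75745481-75748937, FOSB at chr19:45971253-45978437, FOSL2 at chr2:28615669-28639445, JUN at chr1:59246463-59249785, JUNB at chr19:12902310-12904125 and JUND at chr19:18390563-18392432. ATF3 is at chr1:212738676-212794119, EGR1 at chr5:137801181-137805004, IER2 at chr19:13261282-13265718 and IER3 at chr6:30710976-30712327. The interval of FOSB lies inside that of ERCC1 (chr19:45910591-45982086), a DNA repair gene on the opposite strand. Whether the counting used strand is not given in the sources used here, so reads of FOSB and ERCC1 may not have been kept apart.

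Promoter sequences from RefSeq (GRCh38.p14, 250 bases before to 50 bases after the start) were matched by symbol for 9 of the 10 members. The 4 shown here belong to FOSL2, the member with the largest TAK effect, to FOS and FOSB, which fell with Dex in MM1S, and to EGR1, which fell with each single drug in MM1S and not with the combo. They cover chr2:28392608-28392907, chr14:75278578-75278877, chr19:45467746-45468045 and chr5:138465229-138465528 on the plus strand. Capitals mark the TRE (TGACTCA), the core of the CRE (TGACG), the TATA box (TATAAA), the core of a glucocorticoid receptor site (AGAACA) and the CArG box bound by SRF, each searched on both strands.
FOSL2: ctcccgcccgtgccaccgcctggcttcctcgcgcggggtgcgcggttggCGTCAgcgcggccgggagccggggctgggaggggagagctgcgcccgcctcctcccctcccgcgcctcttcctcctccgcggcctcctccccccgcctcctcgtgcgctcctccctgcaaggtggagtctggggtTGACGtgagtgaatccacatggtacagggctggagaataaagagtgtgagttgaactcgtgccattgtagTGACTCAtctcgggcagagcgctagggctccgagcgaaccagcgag
FOS: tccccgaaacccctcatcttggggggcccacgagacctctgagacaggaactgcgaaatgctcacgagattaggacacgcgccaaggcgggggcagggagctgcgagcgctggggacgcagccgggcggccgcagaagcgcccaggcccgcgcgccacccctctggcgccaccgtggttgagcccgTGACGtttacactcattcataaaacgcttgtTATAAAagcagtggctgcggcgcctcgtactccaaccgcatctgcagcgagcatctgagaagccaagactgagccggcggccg
FOSB: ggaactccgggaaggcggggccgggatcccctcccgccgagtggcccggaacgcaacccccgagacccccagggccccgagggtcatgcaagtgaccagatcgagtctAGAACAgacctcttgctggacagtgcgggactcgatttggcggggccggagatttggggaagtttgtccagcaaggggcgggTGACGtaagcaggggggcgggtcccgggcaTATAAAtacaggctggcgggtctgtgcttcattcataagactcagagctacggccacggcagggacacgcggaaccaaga
EGR1: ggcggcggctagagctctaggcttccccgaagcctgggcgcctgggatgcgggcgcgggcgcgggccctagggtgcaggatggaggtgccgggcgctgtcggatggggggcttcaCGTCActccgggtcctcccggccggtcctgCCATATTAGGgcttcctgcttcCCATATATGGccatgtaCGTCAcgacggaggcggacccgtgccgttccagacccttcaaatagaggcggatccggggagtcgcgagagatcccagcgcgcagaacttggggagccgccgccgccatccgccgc

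The CRE core was present in 8 of the 9 members with a promoter, all but ATF3, and in 24.6% of the 35116 promoters in the table. FOSL2 alone among the members had the TRE, from base 5 to base 11 after the start, where base 1 is the start, and 4.95% of all promoters had it. FOS had a CRE core at -64 to -60 and a TATA box at -33 to -28, and FOSB had them at nearly the same places, -60 to -56 and -30 to -25. The letters of the TATA box were present in 4 members (FOS, FOSB, JUNB and ATF3) and in 11.5% of all promoters. In JUNB they were at -31 to -26. ATF3 had 2 promoter entries, and the match was in the second, at -230 to -225, far from the usual place of a TATA box. A start of ATF3 outside these 2 entries was not searched, so its lack of a CRE core holds for them alone. EGR1 had CArG boxes at -105 to -96 and -83 to -74, while 1.29% of all promoters had at least 1. JUND had the full CRE (TGACGTCA, 1.85% of all promoters), which contains the core on both strands. JUN and ATF3, the latter in its first promoter, had TGACATCA (2.61%). AGAACA was found in FOSB alone (14.8% of all promoters). The EGR site (GCGTGGGCG, 0.795%) and the E-box (CACGTG, 7.26%) were found in 0 members. A match describes the letters only and is no evidence of binding.

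The libraries held 15707587 to 24796539 counts. All 8 plasma cell markers examined, SDC1, TNFRSF17, IRF4, PRDM1, XBP1, CD38, SLAMF7 and MZB1, were above 1 CPM (counts scaled to a common library depth) in every group, with summed levels of 3370 to 6130 CPM. The mature B cell list summed to 16.3 to 36.5 CPM, nearly all of it CD79B, and the T cell, myeloid, erythroid, endothelial, fibroblast and epithelial lists to at most 12.9 CPM, with CD3D and CDH5 at 0 counts in all libraries. The endothelial list, mostly PECAM1, moved with treatment in MM1S, at 6.41 to 9.21 CPM in Veh, 12.2 to 12.9 CPM in TAK and 0.466 to 1.01 CPM in Dex. MALAT1, a nuclear RNA, took 2.85% to 3.47% of the counts without TAK and 5.22% to 6.17% with it in both lines. In MM1S the library numbered 2 had the higher CPM in 39 of 40 pairs of member and group, against 20 of 40 in MM1R and 49.3% to 54.1% of all tested genes in the 8 groups. The replicates of MM1S TAK and MM1S Dex differed most, with chi-square values of 22.6 and 20.4 per degree of freedom over all genes, against 2.15 to 9.67 in the other 6 groups. Calls from a fit with a term for the replicate number are given in the closing section. The cause of these differences was not tested.

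**Figure D1:**
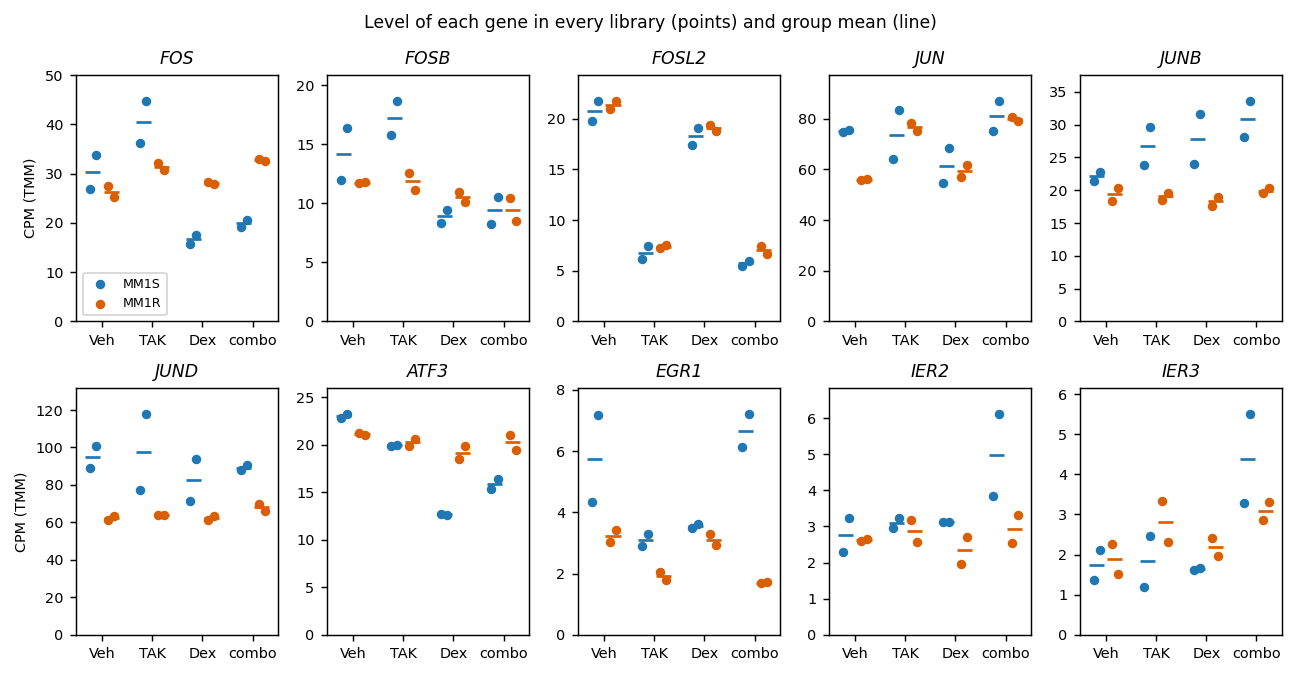
Level of the 10 members in CPM, on linear axes from 0 with 1 panel per gene, by treatment and cell line (colour). Each point is 1 of the 16 libraries and each short line is the mean of the 2 libraries of a group. FOSL2 stands near 20 CPM without TAK and near 7 CPM with it in both lines. FOS and ATF3 are low in the Dex groups of MM1S. In the Dex groups of MM1R, FOS is not low and ATF3 is only slightly below Veh.

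Per kilobase of transcript, JUND was the most abundant member in vehicle, at 50.8 ± 4.37 CPM per kb (SD, n = 2) in MM1S and 33.3 ± 0.871 in MM1R. JUN followed at 22.6 ± 0.193 and 16.9 ± 0.142 CPM per kb. FOS (12.7 ± 2.06 and 11.0 ± 0.645) and JUNB (12.2 ± 0.502 and 10.7 ± 0.751) came next, and their ranges overlapped in each line. ATF3 stood at 6.87 ± 0.0915 and 6.31 ± 0.0387 CPM per kb. FOSL2 was at 3.42 ± 0.233 and 3.52 ± 0.0941 CPM per kb, and FOSB at 2.97 ± 0.647 and 2.46 ± 0.0195, with overlap of the libraries of these genes in MM1S and none in MM1R. EGR1, IER2 and IER3 were the lowest, at 1.03 to 1.83 CPM per kb. The libraries of these 3 genes overlapped in MM1S, and in MM1R those of EGR1 lay below those of IER2 and IER3. JUND and JUN thus exceeded every FOS family gene and ATF3 on this scale. In bulk samples a difference in level cannot be assigned to fewer cells expressing a gene or to less RNA per cell.

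FOSL2 encodes FRA2, a FOS family subunit that lacks the strong activation domain of FOS. In MM1S it measured 19.7 and 21.7 CPM in Veh, 6.17 and 7.41 in TAK, 17.4 and 19.1 in Dex, and 5.51 and 5.94 in combo. In MM1R it measured 20.9 and 21.7 CPM in Veh, 7.19 and 7.54 in TAK, 19.4 and 18.8 in Dex, and 7.47 and 6.65 in combo. All 8 libraries with TAK lay below all 8 without it. With TAK against Veh, FOSL2 fell by 1.61 on the log2 scale in MM1S (SE 0.110, adjusted p = 8.61e-10), a level 3.05-fold lower. In MM1R it fell by 1.53 (SE 0.106, adjusted p = 1.56e-09), a level 2.89-fold lower. The difference of these responses between the lines was not detectable (95% interval -0.25 to 0.40, adjusted p = 0.814). With Dex alone FOSL2 did not pass the test in MM1S (95% interval -0.38 to 0.018, adjusted p = 0.134) or in MM1R (-0.35 to 0.034, adjusted p = 1). Added to Dex, TAK lowered FOSL2 by 1.67 in MM1S and 1.43 in MM1R, with adjusted p = 1.65e-09 and 4.38e-09. The log2 fold change of combo against Veh was -1.85 in MM1S (adjusted p = 9e-11), and that of MM1R was -1.59 (adjusted p = 8.4e-10). These calls held under each of the 7 other settings tried and without any single library.

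FOS is the founding FOS family subunit and a classical immediate early gene. In MM1S it measured 26.8 and 33.7 CPM in Veh, 36.2 and 44.7 in TAK, 15.8 and 17.6 in Dex, and 19.1 and 20.7 in combo. The 4 MM1S libraries with Dex lay below the 4 without it. In MM1R it measured 27.4 and 25.2 CPM in Veh, 32.0 and 30.6 in TAK, 28.4 and 27.9 in Dex, and 33.0 and 32.6 in combo, so no Dex library was below its Veh range. In MM1S, FOS fell by 0.85 with Dex on the log2 scale (SE 0.116, adjusted p = 8.88e-06) and by 1.02 with combo against TAK (SE 0.113, adjusted p = 9.02e-07). In MM1R the log2 fold change with Dex had a 95% interval of -0.13 to 0.32 (adjusted p = 1). The Dex response of FOS was higher in MM1R than in MM1S by 0.95 (SE 0.158, adjusted p = 1.69e-04), with values of 0.78 to 1.11 when any single library was left out. With TAK alone FOS rose by 0.42 in MM1S (SE 0.107, adjusted p = 0.00309). That call was lost without Veh replicate 1 (0.26, adjusted p = 0.0933), without TAK replicate 2 (0.26, adjusted p = 0.0559) and when only these 2 groups were fitted (adjusted p = 0.0546). In MM1R the value with TAK was 0.25 (SE 0.108, adjusted p = 0.059). The combo against Veh lowered FOS by 0.60 in MM1S (adjusted p = 1.85e-04) and raised it by 0.32 in MM1R (adjusted p = 0.0197). The latter call was lost without Veh replicate 2 (0.26, adjusted p = 0.146) and without either combo library (0.31 and 0.32, adjusted p = 0.0847 and 0.0667).

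FOSB, a close relative of FOS, had the same direction with Dex at a lower level. In MM1S it measured 12.0 and 16.4 CPM in Veh, 15.8 and 18.7 in TAK, 8.34 and 9.48 in Dex, and 8.30 and 10.6 in combo. As for FOS, the 4 libraries with Dex were below the 4 without it. FOSB fell by 0.67 with Dex in MM1S (SE 0.154, adjusted p = 0.00184) and by 0.87 with combo against TAK (SE 0.154, adjusted p = 2.23e-04). The first call was lost without Veh replicate 2 (-0.43, adjusted p = 0.059). Against Veh the combo lowered it by 0.58 on the log2 scale (log2 fold change -0.58, adjusted p = 0.00355), a call lost without Veh replicate 2 (-0.35, adjusted p = 0.0985) or combo replicate 1 (-0.42, adjusted p = 0.067). In MM1R it measured 11.7 and 11.8 CPM in Veh, 11.0 and 10.1 in Dex, 12.6 and 11.2 in TAK, and 10.5 and 8.48 in combo, and it passed none of the tests. Its value there for combo against Veh, -0.31 (adjusted p = 0.0944), passed under 3 of the 7 other settings. The line difference in the Dex response, 0.51, did not pass the test (adjusted p = 0.0863), and it did without MM1S Veh replicate 1 (0.72, adjusted p = 0.0225). ERCC1, the overlapping gene, did not pass the test with Dex in MM1S (log2 fold change 0.10, adjusted p = 0.337), at 48.6 CPM in Veh and 52.2 CPM in Dex. With TAK its log2 fold change was 0.43 in MM1S and 0.38 in MM1R. Whether reads of ERCC1 entered the FOSB values was not tested.

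JUN, the main partner of FOS, measured 55.7 and 56.3 CPM in MM1R Veh, 78.3 and 75.1 in TAK, 56.9 and 61.9 in Dex, and 80.6 and 78.9 in combo. The 4 MM1R libraries with TAK lay above the 4 without it. JUN rose by 0.45 with TAK in MM1R (SE 0.110, adjusted p = 0.00241) by 0.43 with combo against Dex (adjusted p = 0.00413) and by 0.51 with combo against Veh (adjusted p = 9.54e-04), without loss of any of these calls under the other settings or with a library left out. In MM1S it measured 74.8 and 75.7 CPM in Veh, 64.0 and 83.3 in TAK, 54.6 and 68.4 in Dex, and 75.3 and 87.0 in combo. The TAK libraries straddled Veh there (95% interval -0.26 to 0.20, adjusted p = 0.842). The difference of the TAK responses between the lines was 0.48 (adjusted p = 0.0877). It passed the test with DESeq2 (adjusted p = 0.0482), with library size as the only scaling (0.0446), without the filter (8.15e-04) and with a term for the replicate number. Without MM1S TAK replicate 2 the difference was 0.69. In MM1S JUN fell by 0.29 with Dex (adjusted p = 0.0449). This call was lost without Veh replicate 1 (-0.30, adjusted p = 0.126), Veh replicate 2 (-0.28, adjusted p = 0.139) or Dex replicate 1 (-0.14, adjusted p = 0.372). JUN rose by 0.40 with combo against Dex in MM1S (adjusted p = 0.00708), a call lost without Dex replicate 1 (0.25, adjusted p = 0.0893) or combo replicate 2 (0.29, adjusted p = 0.0949).

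JUNB and JUND are JUN family subunits often described as weaker activators than JUN, with JUND expressed constitutively. JUNB measured 21.5 and 22.8 CPM in MM1S Veh, 23.8 and 29.6 in TAK, 23.9 and 31.6 in Dex, and 28.1 and 33.6 in combo. All 6 treated libraries lay above both Veh libraries, with wide gaps between replicates. JUNB rose by 0.48 with combo against Veh (adjusted p = 0.003, 0.0707 without combo replicate 2) and by 0.33 with Dex (adjusted p = 0.0431). The Dex call on JUNB was lost with library size only (0.30, adjusted p = 0.0518), with DESeq2 (adjusted p = 0.0592), when only those groups were fitted (adjusted p = 0.0582), and without Veh replicate 1 (0.29, adjusted p = 0.201), Veh replicate 2 (0.37, adjusted p = 0.0906) or Dex replicate 2 (0.12, adjusted p = 0.529). With TAK alone the value of JUNB was 0.27 (adjusted p = 0.0835), and without TAK replicate 1 it was 0.42 (adjusted p = 0.011). In MM1R the 8 JUNB libraries ranged from 17.6 to 20.4 CPM, and no comparison of treatments passed the test. JUND ranged from 71.2 to 118 CPM in MM1S and from 61.0 to 70.0 CPM in MM1R, and with all libraries none of its treatment comparisons passed either. The JUND value with TAK in MM1S rested on single libraries, since it was 0.31 without TAK replicate 1 (adjusted p = 0.0226) and -0.29 without TAK replicate 2 (adjusted p = 0.0398), with TAK libraries at 77.5 and 118 CPM. For combo against TAK in MM1S, JUND stood at -0.40 without TAK replicate 1 (adjusted p = 0.00697) and at 0.20 without TAK replicate 2 (adjusted p = 0.182). JUND also passed for combo against Veh in MM1R when only those groups were fitted (0.14, adjusted p = 0.0131) and for Dex in MM1S without the filter (-0.20, adjusted p = 0.0301).

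ATF3, a stress-induced member of the ATF family that can repress or activate with JUN partners, had the tightest replicates of the 10. It measured 22.8 and 23.2 CPM in MM1S Veh, 19.9 and 20.0 in TAK, 12.7 and 12.7 in Dex, and 15.4 and 16.4 in combo. In MM1R it measured 21.3 and 21.1 CPM in Veh, 19.9 and 20.6 in TAK, 18.5 and 19.9 in Dex, and 21.1 and 19.5 in combo. The 4 MM1S groups did not overlap. ATF3 fell by 0.86 with Dex in MM1S (SE 0.085, adjusted p = 1.78e-07), a level 1.81-fold lower, and in MM1R the 95% interval was -0.31 to 0.026 (adjusted p = 1). Combo against Veh in MM1S gave -0.53 (adjusted p = 2.4e-05). The Dex response was higher in MM1R than in MM1S by 0.72 (adjusted p = 1.30e-04). Its TAK by Dex interaction in MM1S was 0.53 (adjusted p = 0.00687), with ATF3 0.33 higher in combo than in Dex (adjusted p = 0.00635, 0.0559 without combo replicate 2) and 0.33 lower than in TAK (log2 fold change -0.33, adjusted p = 0.00563, 0.0525 without combo replicate 1). The fall of 0.20 with TAK alone in MM1S (log2 fold change -0.20, adjusted p = 0.0445) was lost under 4 of the 7 other settings and without each of the 4 libraries in turn (adjusted p = 0.101 to 0.146).

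**Figure D2:**
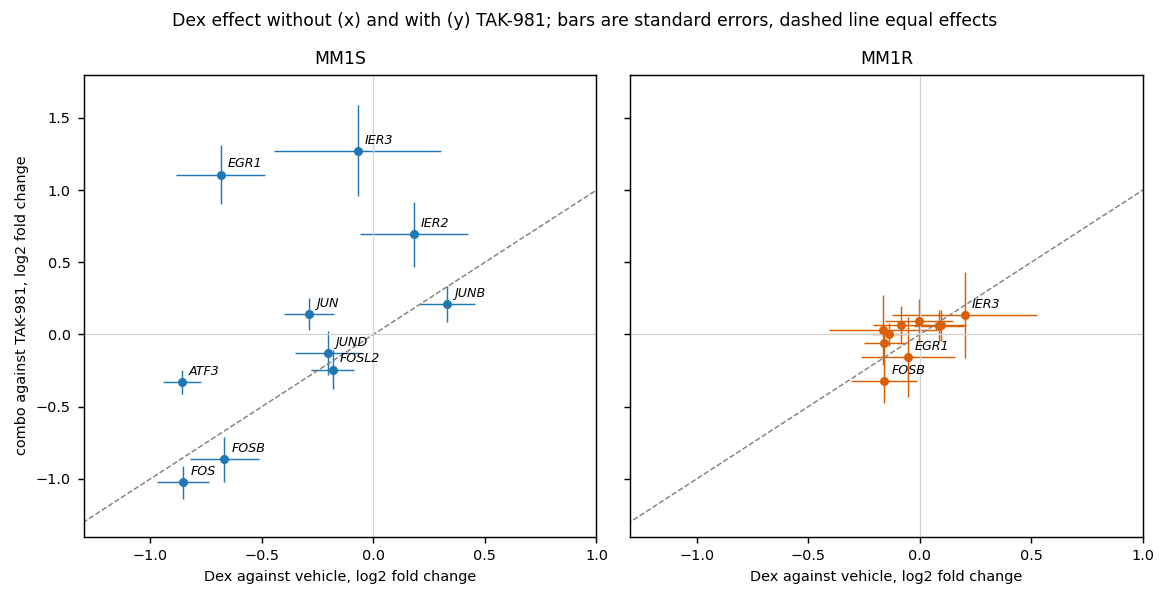
Log2 fold change of each member with Dex against Veh (horizontal) and with combo against TAK (vertical), 1 panel per cell line, with bars for the SE, a dashed line of equal values and, in MM1R, names for the outer points alone. These comparisons share no library. In MM1S, FOS, FOSB and ATF3 lie below 0 on both axes and EGR1 lies below 0 on the horizontal and above 0 on the vertical axis, while the MM1R points lie between -0.32 and 0.20 on both.

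EGR1, a zinc finger immediate early factor that is not an AP-1 subunit, had 36 to 140 counts per library. In MM1S it measured 4.32 and 7.18 CPM in Veh, 2.90 and 3.29 in TAK, 3.47 and 3.63 in Dex, and 6.13 and 7.20 in combo. Each single drug lay below both Veh libraries, and the combo lay above both single drugs and overlapped Veh. EGR1 fell by 0.88 with TAK (SE 0.204, adjusted p = 0.00154) and by 0.68 with Dex (adjusted p = 0.00965), and it rose by 1.11 with combo against TAK (adjusted p = 3.23e-04) and by 0.91 with combo against Dex (adjusted p = 0.00103). The TAK by Dex interaction was 1.79 (SE 0.285, adjusted p = 3.86e-04), and it ranged from 1.39 to 2.12 with any 1 library left out and kept its call. The Veh libraries differed 1.66-fold. Without Veh replicate 2 the falls with TAK (-0.48, adjusted p = 0.0649) and Dex (-0.28, adjusted p = 0.288) were no longer called, and the combo passed the test against Veh (0.63, adjusted p = 0.00856), whereas without Veh replicate 1 that value was -0.10 (adjusted p = 0.637). In MM1R it measured 3.02 and 3.42 CPM in Veh, 2.04 and 1.77 in TAK, 3.28 and 2.92 in Dex, and 1.68 and 1.73 in combo. There all TAK libraries, combo included, lay below the rest. EGR1 fell by 0.76 with TAK in MM1R (adjusted p = 0.0128) and by 0.92 with combo against Veh (adjusted p = 0.00386). The first of these was lost without MM1R Veh replicate 2 (-0.66, adjusted p = 0.0804) or TAK replicate 2 (-0.66, adjusted p = 0.0985).

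IER2, a nuclear immediate early protein, and IER3, a stress-inducible regulator of survival, had 45 to 111 and 23 to 100 counts per library. In MM1S, IER2 measured 2.30 and 3.23 CPM in Veh, 2.96 and 3.24 in TAK, 3.11 and 3.13 in Dex, and 3.84 and 6.10 in combo. IER3 measured 1.36 and 2.10 CPM in Veh, 1.19 and 2.47 in TAK, 1.61 and 1.66 in Dex, and 3.28 and 5.50 in combo. For both genes the combo libraries were above all others of MM1S. The TAK by Dex interaction there passed neither for IER2 (0.51, SE 0.332, adjusted p = 0.322) nor for IER3 (1.34, SE 0.492, adjusted p = 0.0771). That of IER3 passed under 2 of the 7 other settings. Against Veh, IER2 rose by 0.87 (adjusted p = 0.00311) and IER3 by 1.36 (adjusted p = 0.00128) with the combo. Without combo replicate 2 these values were 0.48 (adjusted p = 0.139) and 0.93 (adjusted p = 0.0504), and without Veh replicate 1 that of IER2 was 0.63 (adjusted p = 0.0616). Against TAK the combo values were 0.69 for IER2 (adjusted p = 0.0225) and 1.27 for IER3 (adjusted p = 0.00451). Both were lost without combo replicate 2 (0.31, adjusted p = 0.42, and 0.84, adjusted p = 0.115), and that of IER2 with DESeq2 (adjusted p = 0.0627) and without TAK replicate 1 (0.63, adjusted p = 0.0706). Against Dex, IER3 rose by 1.44 (adjusted p = 0.00151), and without combo replicate 2 its adjusted p was 0.0493. IER2 rose by 0.68 against Dex (adjusted p = 0.0178), a call lost with DESeq2 (adjusted p = 0.0563) and without Dex replicate 1 (0.68, adjusted p = 0.0513), Dex replicate 2 (0.70, adjusted p = 0.0601) or combo replicate 2 (0.30, adjusted p = 0.38). In MM1R neither gene passed a test, with 1.97 to 3.32 CPM for IER2 and 1.53 to 3.33 CPM for IER3. The IER3 values there for TAK (0.56, adjusted p = 0.15) and combo (0.70, adjusted p = 0.0685) against Veh passed under 3 and 4 of the 7 other settings. That for combo against Dex (0.50, adjusted p = 0.192) passed under 1.

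**Figure D3:**
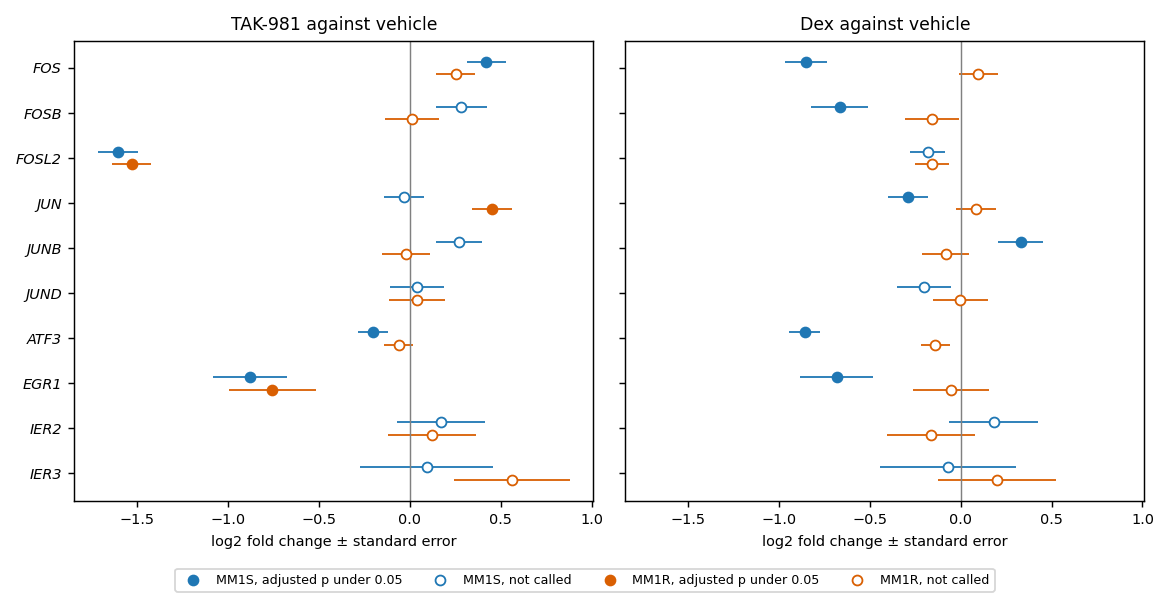
Log2 fold change of the 10 members with TAK (left) and with Dex (right) against Veh in each line (colour), with bars for the SE. Filled points passed the test (adjusted p under 0.05) and open points did not. FOSL2 is the farthest below 0 with TAK in both lines, and Dex has no filled point in MM1R.

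Counted over the 10 members, the TAK response in MM1S had 1 higher (FOS) and 3 lower (FOSL2, EGR1 and ATF3), where 25.2% of all tested genes were called higher and 23.7% lower. In MM1R it had 1 higher (JUN) and 2 lower (FOSL2 and EGR1), against 25.8% and 27.6%. The shares of members called are near or below this background, apart from their sizes. FOSL2 and EGR1 were lower in both lines, and FOSL2 alone was left in each line when a change of at least 1 on the log2 scale was also required. The share of all genes that met this threshold is not given here. The line difference in the TAK response called 0 members, with 3.19% of genes higher and 0.978% lower in MM1R. At an unadjusted p under 0.05 that count was 1, and DESeq2 called 1, JUN in both cases.

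Dex in MM1S had 1 member higher (JUNB) and 5 lower (FOS, FOSB, JUN, ATF3 and EGR1), against 20.8% and 21.5% of all genes. Their median log2 fold change was -0.25, and that of all tested genes 0.011. Without Veh replicate 2 the lower calls were 2, FOS and ATF3. In MM1R, Dex called 0 members and 0% of genes in either direction with edgeR and with DESeq2, while 395 genes and 0 members had an unadjusted p under 0.05. Without the filter, edgeR called 18 higher and 12 lower of 20096 genes, with no member among them. The median SE of the members in that comparison was 0.138, the same as in MM1S. The line difference in the Dex response had 2 members higher in MM1R (FOS and ATF3) and 0 lower, against 15% and 13.1% of genes. Without MM1S Veh replicate 1 FOSB (0.72, adjusted p = 0.0225) and EGR1 (0.96, adjusted p = 0.00964) also passed.

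The combo against Veh in MM1S had 3 members higher (JUNB, IER2 and IER3) and 4 lower (FOS, FOSB, FOSL2 and ATF3), against 30.8% and 29.5% of genes. All 3 higher calls were lost without combo replicate 2 (JUNB 0.34, adjusted p = 0.0707). In MM1R it had 2 higher (FOS and JUN) and 2 lower (FOSL2 and EGR1), against 24.8% and 26.7%. Against Dex the combo had 5 higher (JUN, ATF3, EGR1, IER2 and IER3) and 1 lower (FOSL2) in MM1S, where 22.2% and 25.4% of genes were called, and 1 higher (JUN) and 2 lower (FOSL2 and EGR1) in MM1R, with 23.1% and 25.3%. With upper quartile scaling, the calls over all genes in the MM1S comparison turned from 3159 higher and 3606 lower to 4176 and 2788, and those with TAK in MM1R from 3666 and 3926 to 4438 and 3144. The comparisons with Veh, with Dex and with TAK share the combo libraries, so they are not independent of each other.

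Against TAK the combo had 3 members higher (EGR1, IER2 and IER3) and 3 lower (FOS, FOSB and ATF3) in MM1S, against 14.5% and 20.6% of genes, and 0 in MM1R, where 0% of genes were called in either direction by edgeR and by DESeq2 and 214 genes but 0 members had an unadjusted p under 0.05. This comparison is a second measure of Dex, in cells that also had TAK and in libraries not used for Dex against Veh. FOS, FOSB and ATF3 were lower and FOSL2 and JUND did not pass the test in either, while EGR1 had opposite directions. The TAK by Dex interaction in MM1S called ATF3 and EGR1 higher and 0 members lower, against 5.47% and 9.48% of genes (777 higher and 1348 lower, and 1033 and 908 with library size as the only scaling). In MM1R it called 0 members and 0% of genes with edgeR and with DESeq2, and 400 genes and 0 members had an unadjusted p under 0.05. Without the filter, edgeR called 4 genes higher and 15 lower for this interaction in MM1R, and 4 and 5 for combo against TAK there. With only the groups compared, the latter had 1 higher and 4 lower. No member was among these genes.

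In vehicle, MM1R was lower than MM1S for JUN (-0.43, adjusted p = 0.00434), JUND (-0.61, adjusted p = 0.00399) and EGR1 (-0.83, adjusted p = 0.00189). JUN measured 74.8 and 75.7 CPM in MM1S and 55.7 and 56.3 in MM1R. JUND measured 89.2 and 101 CPM in MM1S and 61.1 and 63.4 in MM1R, so neither gene overlapped between the lines. These were 3 members lower and 0 higher, against 22.6% and 25.6% of all genes. The call on EGR1 was lost without MM1S Veh replicate 2 (-0.42, adjusted p = 0.0948), and without MM1S Veh replicate 1 FOS (-0.36, adjusted p = 0.025) and FOSB (-0.48, adjusted p = 0.0233) also passed. Each line is 1 culture lineage, so differences between them cannot be told apart from other differences between these cultures. For FOSL2 the 95% interval of the log2 difference was -0.15 to 0.24 (adjusted p = 0.737).

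The AP-1 transcripts were also summed by family per kilobase, with FOSL1, which did not pass the filter, counted among the FOS family. In MM1S the FOS family made up 17.1% ± 1.39 (SD, n = 2) of the summed AP-1 transcripts in Veh, 18.8% ± 1.36 in TAK, 12.9% ± 1.10 in Dex and 10.7% ± 0.127 in combo. The JUN family made up 76.8% ± 1.03, 76.0% ± 2.44, 83.0% ± 1.77 and 84.8% ± 0.0495 in the same order, and ATF3 the rest. In MM1R the FOS share was 20.3% ± 0.898 in Veh, 18.6% ± 0.495 in TAK, 20.5% ± 0.955 in Dex and 17.9% ± 0.0636 in combo. Since these are shares, a lower share of one family is a higher share of the others. With Dex in MM1S the summed FOS family level itself was lower, at 12.0 ± 0.953 CPM per kb against 19.1 ± 2.94 in Veh (SD, n = 2). With TAK in MM1R that sum was 16.9 ± 0.542 CPM per kb against 17.1 ± 0.514 in Veh, with overlap of the libraries, while the JUN family sum was 67.8 ± 0.116 against 60.8 ± 1.76. These sums and shares describe 2 libraries per group and carry no test.

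**Figure D4:**
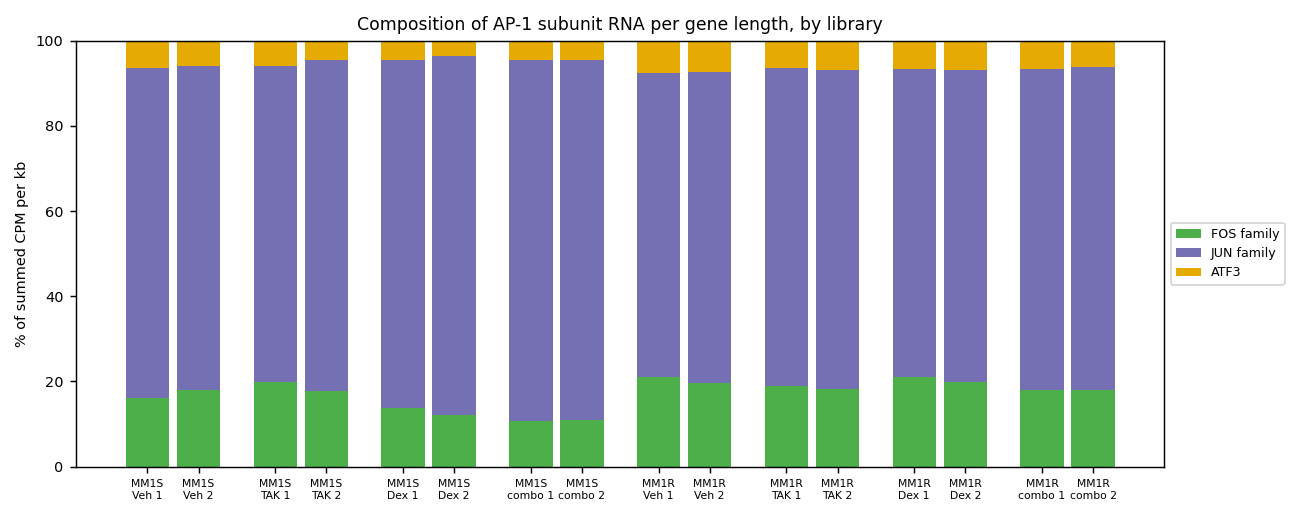
Share of the FOS family, the JUN family and ATF3 in the summed AP-1 transcripts (percent of CPM per kb), as 1 stacked bar for each of the 16 libraries. The JUN family takes 72% to 85% in the group means, and the FOS share is smallest in the Dex and combo libraries of MM1S.

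**Figure D5:**
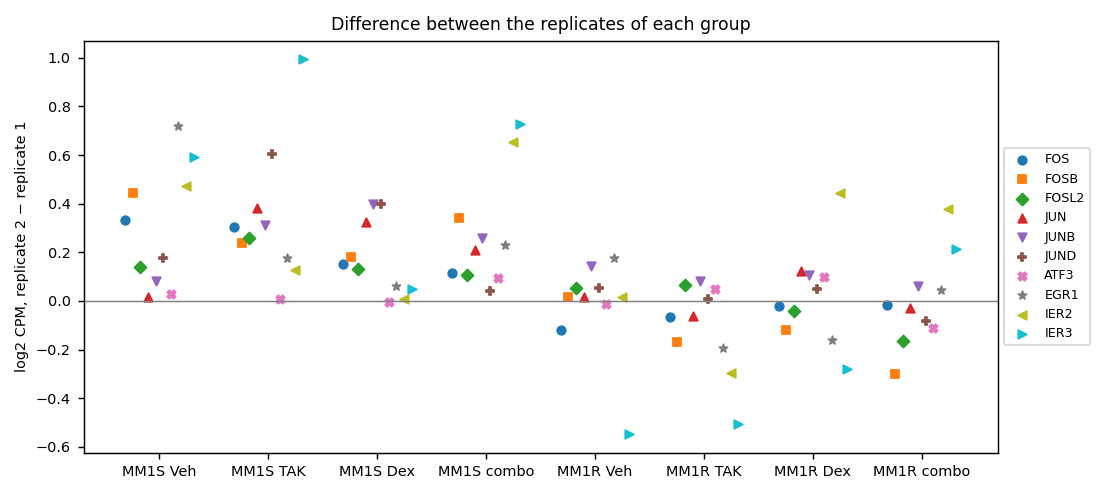
Log2 ratio of the library numbered 2 over the library numbered 1 for each member, by group, with 0 as the line of equal levels. In MM1S 39 of 40 points are above 0 and in MM1R 20 of 40, and IER3 in MM1S TAK has the widest gap, 2.07-fold.

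Across the 16 libraries, which share lines and treatments, the closest pairs of members in log2 CPM were JUNB with JUND (Pearson r = 0.807), FOS with ATF3 (0.803), JUNB with IER2 (0.745) and FOS with FOSB (0.737). The lowest r was that of FOSL2 with JUN (-0.67). Among 9645 other tested genes above the level set for this search, those closest to FOSL2 were SH3RF1 (0.991), LRP5, a WNT co-receptor (0.989), and SLCO4A1 (0.988). SH3RF1 fell by 1.78 with TAK in MM1S and by 1.35 in MM1R, and LRP5 fell by 1.42 and 1.35. Closest to FOS were AGAP1 (0.956), POU2AF1, a B cell coactivator (0.941), and AHCYL2 (0.94). Closest to ATF3 were GPLD1 (0.962), PPFIA4 (0.958) and TLR7 (0.953). JUND was closest to FTH1 (0.938), ST5 (0.915) and KIAA0930 (0.911), JUNB to CIC (0.97), C6orf47 (0.957) and ZBTB7A (0.954), and JUN to GBP1 (0.821), USP11 (0.82) and ABCA1 (0.817). EGR1 was closest to TTC28-AS1 (0.937), GOLGA2P5 (0.932) and STRBP (0.919), FOSB to ERP29 (0.904), CCL5 (0.862) and CEP19 (0.848), IER2 to STX4 (0.856), RAB40C (0.855) and MADD (0.852), and IER3 to ABCA7 (0.81), MAPKBP1 (0.808) and GOSR2 (0.798). These values describe patterns over libraries that are not independent and carry no test.

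The other leucine zipper factors of the AP-1, ATF and MAF families can partner or compete with the members, and 23 of them were tested. With TAK, 9 rose and 1 fell in MM1S and 10 rose and 1 fell in MM1R, with a median log2 fold change of 0.15 and 0.18 against 0.037 and 0.0043 for all genes. Over all tested genes, TAK called 25.2% higher with 23.7% lower in MM1S, while the MM1R shares were 25.8% and 27.6%. MAF, an oncogene of myeloma, was called higher in both lines. Its rise was 0.56 in MM1S (adjusted p = 8.91e-08), while the MM1R value was 0.67, with an adjusted p of 1.25e-08. MAFF, a small MAF protein, was also called higher in both. It rose by 0.84 in MM1R (adjusted p = 1.26e-05), while the MM1S value was 0.31, with an adjusted p of 0.0224. The line difference in the TAK response passed for neither MAF (adjusted p = 0.46) nor MAFF (adjusted p = 0.07). ATF6 fell by 0.24 in MM1R (adjusted p = 0.0108). With Dex in MM1S, 6 rose and 5 fell (median 0.027 against 0.011), where 20.8% of all genes were called higher and 21.5% lower. BACH2, a B cell repressor, rose by 1.30 (adjusted p = 9.32e-10), while ATF4, the factor of the integrated stress response, fell by 0.50 (adjusted p = 1.18e-04) and ATF2 by 0.34 (adjusted p = 0.00541). With Dex in MM1R 0 of the 23 were called.

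Of the wider group of immediate early genes, 43 were tested. In MM1S, 17 rose and 6 fell with Dex (median 0.20 against 0.011 for all genes, of which 20.8% were called higher and 21.5% lower), and 0 in MM1R. NFKBIA, the NF-κB inhibitor, rose by 1.25 (adjusted p = 2.53e-09) and ZFP36L2, which destabilises AU-rich transcripts, by 1.57 (adjusted p = 7.73e-14). BHLHE40, a clock and hypoxia repressor, fell by 1.70 (adjusted p = 2.91e-09) and PHLDA1 by 0.79 (adjusted p = 1.25e-08). The line difference in the Dex response was called for 18 of the 43, lower in MM1R for 15 and higher for 3, against 13.1% and 15% of all genes. With TAK, 21 rose and 6 fell in MM1S and 21 rose and 11 fell in MM1R (medians 0.21 and 0.25 against 0.037 and 0.0043). The shares over all genes were 25.2% higher with 23.7% lower, and 25.8% higher with 27.6% lower, respectively. IER5 rose by 1.22 in MM1S (adjusted p = 1.66e-06) and CTGF, a YAP target, by 1.09 (adjusted p = 6.20e-04), while ID2, an inhibitor of basic helix-loop-helix factors, fell by 0.89 (adjusted p = 1.23e-06) and MYC by 0.68 (adjusted p = 4.45e-08). In MM1R ZFP36 and CTGF each rose by 1.30 (adjusted p = 8.14e-12 and 4.58e-04), and NFIL3 fell by 0.83 (adjusted p = 2.36e-09) and ID2 by 0.93 (adjusted p = 3.11e-07).

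Of 29 kinases upstream of AP-1, 10 rose and 7 fell with TAK in MM1S, 8 rose and 5 fell in MM1R, and 10 rose and 6 fell with Dex in MM1S, with medians of 0.019, 0.014 and 0.054 against 0.037, 0.0043 and 0.011 for all genes. The shares of all genes called higher and lower in these comparisons were 25.2% and 23.7%, 25.8% and 27.6%, and 20.8% and 21.5%, and they are also the background of the lists that follow. MAP2K6, an activator of p38, rose with TAK, by 0.87 in MM1S with an adjusted p of 1.35e-05 and by 1.06 in MM1R with an adjusted p of 2.44e-06, and it fell by 1.08 with Dex in MM1S (adjusted p = 1.94e-05). MAPK9, which encodes JNK2, fell by 0.42 (adjusted p = 5.17e-05), 0.45 (adjusted p = 1.82e-05) and 0.28 (adjusted p = 0.00229) in those comparisons. With Dex in MM1S, MAP3K5, the stress kinase ASK1, rose by 1.52 (adjusted p = 2.15e-12) and MAPK11, a p38 kinase, by 1.64 (adjusted p = 1.35e-05), while TAK raised MAPK11 by 0.89 in MM1S (adjusted p = 0.00697) and lowered RPS6KA5, the histone kinase MSK1, by 0.56 on the log2 scale (log2 fold change -0.56, adjusted p = 0.0103). In MM1R, MAP3K1 rose by 0.58 (adjusted p = 1.82e-06) and MAPK13 fell by 0.82 (adjusted p = 9.96e-08) with TAK.

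Of 22 transcription factors and cofactors that act on immediate early promoters, 5 rose and 3 fell with TAK in MM1S, 8 rose and 5 fell in MM1R, and 6 rose and 1 fell with Dex in MM1S (medians 0.041, 0.072 and 0.030). STAT3 rose with TAK by 0.55 (adjusted p = 2.66e-07) and 0.44 (adjusted p = 3.96e-06), and the SRF cofactor MKL2 fell by 0.52 (adjusted p = 1.01e-05) and 0.51 (adjusted p = 1.14e-05). NAB1, an EGR1 corepressor, fell by 0.64 with TAK (adjusted p = 2.18e-06) and 0.54 with Dex (adjusted p = 1.80e-05) in MM1S, and its relative NAB2 fell by 0.97 with TAK in MM1R (adjusted p = 5.61e-04). CREM rose by 0.50 with TAK in MM1S (adjusted p = 0.00216), CRTC1 by 0.46 with TAK in MM1R (adjusted p = 8.23e-04) and by 0.57 with Dex in MM1S (adjusted p = 1.17e-04), and MKL1 by 0.43 with Dex in MM1S (adjusted p = 2.89e-04). Of 19 genes for AP-1 turnover, SUMO conjugation and repression, 5 rose and 2 fell with TAK in MM1S, 5 rose and 4 fell in MM1R, and 3 rose and 3 fell with Dex in MM1S (medians -0.056, 0.046 and -0.024). SENP1, a SUMO protease, fell by 0.35 with TAK (adjusted p = 3.37e-04) and 0.40 with Dex (adjusted p = 1.17e-04) in MM1S. With TAK, PIAS3, a SUMO ligase, rose by 0.36 in MM1S (adjusted p = 9.87e-04) and PIAS2, another, by 0.56 in MM1R (adjusted p = 1.10e-04), and the demethylase KDM1A fell by 0.27 (adjusted p = 0.0054) and 0.34 (adjusted p = 8.36e-04) in MM1S and MM1R. MEN1, which encodes the JUND partner menin, fell by 0.51 with TAK in MM1R (adjusted p = 2.19e-05) and rose by 0.24 with Dex in MM1S (adjusted p = 0.0159), where SENP2 fell by 0.26 (adjusted p = 0.00131).

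Of 24 genes listed as AP-1 targets, 14 passed the filter. With TAK, 4 rose and 5 fell in MM1S and 4 rose and 3 fell in MM1R (medians -0.12 and 0.091). DUSP1, a MAPK phosphatase that also belongs to the immediate early list, rose by 0.75 (adjusted p = 4.08e-06) and 0.72 (adjusted p = 5.94e-06), TIMP1, a protease inhibitor, by 0.31 (adjusted p = 0.0082) and 0.36 (adjusted p = 0.00121), and TGFB1 fell by 0.65 (adjusted p = 7.31e-05) and 0.62 (adjusted p = 1.37e-04). VIM fell by 0.82 in MM1S (adjusted p = 1.03e-07), and HMOX1, heme oxygenase, by 0.62 in MM1R (adjusted p = 7.72e-05). With Dex in MM1S, 4 rose and 5 fell (median 0.0063), among them CCND1, cyclin D1, which fell by 1.73 (adjusted p = 1.22e-08), VIM, which fell by 0.68 (adjusted p = 1.65e-06), HMOX1, which rose by 0.97 (adjusted p = 2.03e-06), and TGFB1, which rose by 0.64 (adjusted p = 5.53e-05). The combo against TAK in MM1S had 2 rise and 7 fall, with a median of -0.56 against -0.019 for all genes, of which 14.5% were called higher and 20.6% lower. The 6 lists and their counts describe these comparisons and were not tested against other genes.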

How the data were processed

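RNA-seq was performed on MM1S and MM1R cells in 16 libraries, 2 per group. The authors deposited 1 raw count per gene and library, which was used as deposited. The submitters' processing notes name bcl2fastq 2.18.0.12, STAR 2.6.0, HTSeq 0.6.0, edgeR 3.28.1 and hg19, without their order or the use of strand. Columns that match no sample numbered 0. Genes were kept with filterByExpr, scaled with TMM and tested in R 4.3.3 with the quasi-likelihood F test of edgeR 4.0.16, with 1 term per group over all 16 libraries (8 residual degrees of freedom), 15 contrasts and Benjamini-Hochberg adjustment over the 14215 genes tested. The call threshold was an adjusted p under 0.05. The script was tested on simulated data. CPM used TMM-scaled library sizes, and log2 CPM a prior count of 2. Most log2 fold changes smaller than their SE are given only as 95% intervals. A gene pattern search covered genes with a mean log2 CPM of at least 3.

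The 10 members, the 6 lists and the tests were chosen with earlier results of these data known. All members are described, and those called are named in each comparison. The rule took TAK in both lines and Dex in MM1S, and from each list named the 2 largest rises and 2 largest falls among called genes with a mean log2 CPM of at least 1, or fewer where fewer passed, and for each member the 3 genes with the highest r. Some genes so picked are not reported here. Alternatives were RLE, library size only and upper quartile scaling, no filter, the replicate number as a block, DESeq2 1.42.0 and a fit of only the groups compared, besides leaving out each library and a fold change threshold. Among the members, the total counts limit the precision of EGR1, IER2 and IER3 most, which had at most 140 counts. Of the genes named from the lists, CTGF, MAPK11, NAB2 and MAP2K6 had the fewest, down to 19, 34, 39 and 45 counts in a library. Their fold changes are less precise for that reason.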

Additional observations from a re-analysis of the deposited data

Results flagged for a closer look

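The Dex response of FOS differed between the lines by 0.951 on the log2 scale (MM1R minus MM1S, adjusted p = 0.000169), by an interaction term in the edgeR fit. That of ATF3 differed by 0.719 (adjusted p = 0.00013). For both genes all 4 MM1S libraries with Dex, alone or with TAK, were below the 4 without it. Both calls held in each of the 7 other settings and without any of the 8 libraries involved, with 0.78 to 1.11 for FOS and 0.67 to 0.77 for ATF3.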

How the results depend on the processing

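Of 46 member calls, 40 held in all 7 other settings and 26 without each single library. Where a change of at least 1 on the log2 scale was also required, the members called were 1 for TAK in each line, 0 for Dex in MM1S, 2 and 1 for combo against Veh in MM1S and MM1R, 3 for combo against TAK in MM1S, 2 and 1 for combo against Dex in MM1S and MM1R, 0 between vehicles, 0 for the line difference in the Dex response and 1 for the TAK by Dex interaction in MM1S. With only the groups compared, they were 2 and 5 for TAK in MM1S and MM1R (4 and 3 over all libraries), 7 for combo against Veh in MM1R (4), 5 for combo against Dex in MM1R (3) and 6 between vehicles (3). Over all 14215 genes, that fit called 2356 higher and 2826 lower for TAK in MM1S and 4507 and 4819 in MM1R. In MM1R it called 4403 and 4704 for combo against Veh and 3695 and 3969 for combo against Dex. Between vehicles it called 4436 and 4179. Without the filter the members called were 5 for TAK in MM1R, 1 and 5 (0 and 2) for the line differences in the TAK and Dex responses, and 4 (2) for the interaction in MM1S. Of the 20096 genes tested there, 3721 were called higher and 4098 lower for TAK in MM1R, and 1006 and 1673 for the interaction in MM1S. The line differences called 832 and 481 with TAK and 2315 and 2007 with Dex. The line difference in the TAK response called 1 member with library size only and with DESeq2. Over all genes these settings called 592 higher and 112 lower, and 477 and 131. The cause of these changes in the counts was not tested.

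With single libraries left out, where the library left alone in its group is assumed to vary like the other groups, the members called ranged from 2 to 6 for TAK in MM1S, 2 to 5 for Dex in MM1S, 4 to 7 for combo against Veh and 3 to 6 for combo against Dex in MM1S, 2 to 5 between vehicles, 0 to 1 and 2 to 4 for the line differences in the TAK and Dex responses, and 2 to 4 for the interaction in MM1S. Of the 87 of 150 values larger than their SE, the direction turned for EGR1 in combo against Veh (-0.10 to 0.63), JUN in combo against TAK (-0.036 to 0.35) and JUNB in combo against Dex (-0.031 to 0.37), all in MM1S. None was called with all libraries, and each was called with 1 library left out (Veh, TAK and Dex replicate 2). Of the rest, JUND with TAK in MM1S (-0.29 to 0.31) was called in opposite directions without TAK replicate 1 and 2.

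Replicate numbers are shared by all groups, and no label says that they mark a common culture or day. Same-numbered libraries deviated together with r of 0.152 to 0.618 in MM1S and 0.0719 to 0.252 in MM1R, each over 6 group pairs. With the replicate block, the members called were 6 and 5 for TAK in MM1S and MM1R, 6 for combo against Veh in MM1R, 7 for combo against TAK in MM1S (6), 7 and 4 for combo against Dex in MM1S (6) and MM1R, 1 and 5 for the line differences in the TAK and Dex responses and 4 for the interaction in MM1S. The other 6 member counts were equal to those without the block. Over all 14215 genes, the block called 4028 higher and 3802 lower for TAK in MM1S, and 4065 and 4373 in MM1R. It called 3954 and 4283 for combo against Veh in MM1R, and 2609 and 3450 for combo against TAK in MM1S. For combo against Dex it called 3621 and 4078 in MM1S and 3786 and 4098 in MM1R. For the Dex line difference it called 2694 and 2521, and for the interaction in MM1S 1383 and 2196. Each was above the count without the block. The members it added were FOSB and JUNB for TAK in MM1S, FOS and IER3 for TAK in MM1R, and FOSB and IER3 for combo against Veh in MM1R. It also added JUNB for combo against TAK in MM1S and FOS for combo against Dex in both lines. For the line differences it added JUN with TAK, and FOSB, JUN and JUNB with Dex. For the interaction in MM1S it added JUN and IER3.

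With 2 libraries per group, lists of calls depend on the spread borrowed across genes. The counts of members with single libraries left out stand here without the share over all genes. So do the member counts that also required a change of at least 1 on the log2 scale. The 36 to 140, 45 to 111 and 23 to 100 counts of EGR1, IER2 and IER3 limit their precision. The line difference in the TAK response over all genes, 453 higher and 139 lower, was 832 and 481 without the filter and 1114 and 947 with the replicate block.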
